A study of Homo sapiens with 6 samples.

Results

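The genes described here encode the protein coats that bud transport vesicles: the 3 clathrin chains, the clathrin adaptors AP-1, AP-2 and GGA, the COPI coat of the Golgi and the COPII coat of the endoplasmic reticulum. They were taken by name from a list of 39 genes, and all probe sets of the array whose annotation named one of them were read. All 39 genes were measured, by 108 probe sets that named 1 gene, out of 19775 genes and 41091 such probe sets in all. The cells were NTERA2/D1, a human teratocarcinoma line of the testis that is established in culture, grown in medium without phenol red with 10% fetal bovine serum. In the control group they received nonspecific (Scrambled) siRNA, and in the knockdown group siRNA for human VAMP7, in both cases 24 h after plating and for 72 h. The labels do not say how many siRNA sequences each reagent held. Each group held 3 arrays. The sample titles call these biological replicates and number them 1 to 3, but the description field repeats the number 1 for each knockdown sample. No label ties them to separate cultures, and the p-values rest on a spread that could be technical. The comparison asks which coat transcripts differ when the SNARE VAMP7 is lowered.

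A coat is a protein lattice that assembles on a membrane, gathers cargo, bends the membrane into a bud and falls off after scission. Clathrin forms the outer cage at the plasma membrane, the trans-Golgi network and endosomes, and reaches its cargo through adaptors: AP-2 at the plasma membrane, AP-1 and the GGA proteins at the trans-Golgi network and endosomes. COPII carries newly made proteins out of the endoplasmic reticulum, and COPI returns proteins to it and moves them within the Golgi. SNAREs such as VAMP7 are themselves cargo of coated vesicles and act after uncoating, when the vesicle fuses with its target.

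VAMP7 read 2487, 2617 and 2741 intensity units on the control arrays and 136.8, 175.4 and 148.6 on the knockdown arrays, so its level matched the group labels on each array. Values were compared as log2(intensity + 50), a scale that understates the change of dim genes. VAMP7 was the only gene called, at an adjusted p of 8.65e-05 in limma. Median intensity ran from 58.85 to 67.54 across arrays. Along the main axis of variation (27.3% of the variance), knockdown replicate 1 was far from the rest. It was the highest or the lowest of the 6 arrays for 46.2% of the coat genes and for 47% of all genes. The ratio of 3′ to 5′ control probe sets, a sign of RNA integrity, ran from 0.941 to 0.996 for GAPDH and from 2.27 to 3.43 for ACTB, and the groups overlapped in both. Control replicate 3 had both the highest ACTB ratio and the lowest median intensity. It was the highest of the 6 arrays for 28.2% of the coat genes, against 16.4% of all genes. Whether these are linked was not tested. All 9 measured embryonal carcinoma markers read at or above the median gene, NANOG, SOX2 and LIN28A among them, with summed intensities of 85549 to 106514 in control and 93074 to 109297 in knockdown. None of 5 leukocyte markers reached the median gene, while 2 of 8 fibroblast, 3 of 6 neuron and 3 of 6 endothelial markers did. The summed endothelial markers were 3520 to 3725 in control and 3980 to 4545 in knockdown, without overlap. Of these 6 markers 4 lay above 0 as a log2 difference and 2 below, TEK at -0.063 and CDH5 at -0.045. VWF averaged 1176 ± 44.2 in control and 1596 ± 240 in knockdown (SD, n = 3). ESAM read below the median gene, at means of 11.0 and 57.7. The part of these markers in the values below was not tested.

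No coat gene passed the test. Each array read RNA of a whole culture, in which fewer cells of a type and less RNA per cell cannot be told apart. The smallest adjusted p among the 39 was 0.638 and the largest 0.991 (limma, Benjamini-Hochberg over 19775 genes), where 0.00506% of all genes were called. At an unadjusted p under 0.05 there were 2 coat genes, the clathrin light chain gene CLTB and the COPII cage gene SEC13, both lower in knockdown. That is 5.13% of the members, against 6.66% of all genes (3.03% lower and 3.63% higher). The 3 arrays of one group lay wholly beyond those of the other for 3 members (7.69%), CLTB and SEC13 on the lower side and SEC23A on the higher, against 13.0% of all genes (6.29% lower and 6.68% higher). Among genes at or above the median gene, an unadjusted p under 0.05 was reached by 5.71% of the coat genes and 5.42% of all. The groups did not overlap there for 8.57% of the coat genes and 15.4% of all. The log2 differences ran from -0.34 for CLTB to 0.41 for AP1G2, 18 above 0 and 21 below, with a median of -0.020 against 0.0030 over all genes.

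The intervals show how large a change could have been missed on the probe set used for each gene. The 95% interval of the log2 difference lay inside a 1.5-fold change in either direction for 34 of the 39 coat genes (87.2%), against 70.5% of all genes. The 5 others were AP1G2, AP2A1, SEC23B, SEC24D and SEC31B, and of these the intervals of AP2A1 (-1.02 to 0.36) and SEC31B (-0.75 to 1.001) reached past 2-fold. The coat genes were mostly bright: 4 of 39 (AP1S3, AP2A1, COPZ2 and SEC31B) read below the median gene, and these dim genes are marked where named. AP1S3 and COPZ2 are among the 34. The scale understates the change of dim genes, so the intervals of AP1S3 and COPZ2 do not bound a change in their transcripts. The median standard error was 0.117 for the coat genes and 0.135 for all genes. Among genes at or above the median gene, 91.4% of the coat genes and 89.2% of all had intervals inside 1.5-fold. The median standard errors there were 0.106 and 0.114. Over the 108 coat probe sets, 79 intervals (73.1%) lay inside 1.5-fold, against 65.9% over all probe sets. Other bright probe sets of genes among the 34 reached past 1.5-fold. Examples were AP1S2 (-1.31 to -0.14), SAR1A (-0.74 to -0.052), SAR1B (-0.81 to 0.12) and GGA1 (-0.20 to 0.94). The intervals of the probe sets used do not bound a change on these. Intensities of different probe sets are not set against each other, because each probe set has its own response.

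**Figure D1:**
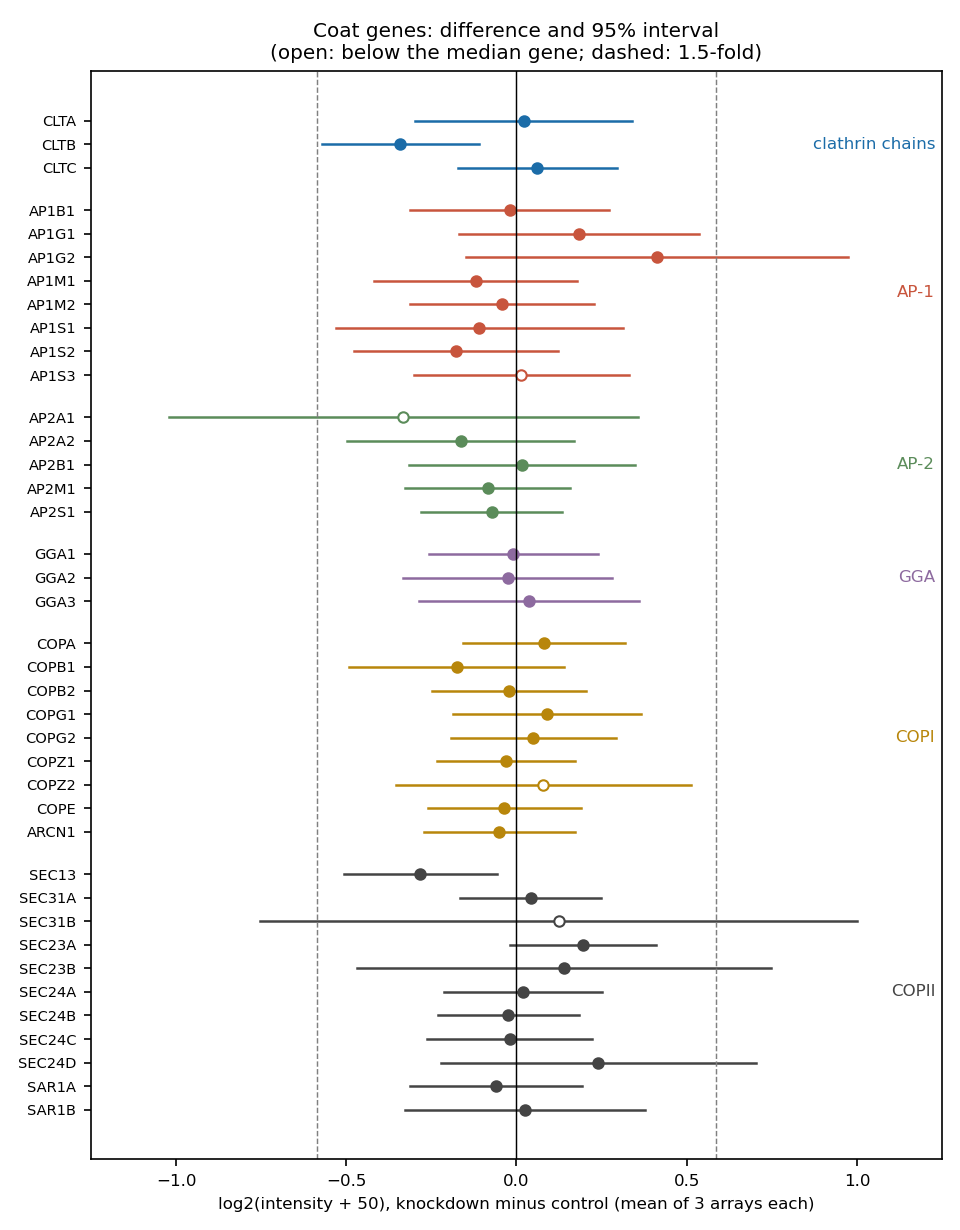
Difference between knockdown and control on the log2(intensity + 50) scale (x axis) for the 39 coat genes (rows, coloured by coat type), with the 95% interval from limma as a line; each point is the difference between the means of 3 arrays, open points are genes below the median gene, and dashed lines mark 1.5-fold. The intervals of CLTB and SEC13 are the ones that leave out 0, and 5 intervals cross a dashed line.

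Among the clathrin chains, the light chain CLTB read 650, 553.1 and 630.8 on the control arrays and 460.1, 476.1 and 477 on the knockdown arrays. Each knockdown array was below each control array, and the 3 knockdown arrays were close to each other. The group means were 611 ± 51.3 and 471 ± 9.51 (SD, n = 3), so 77.1% of the control signal remained. In limma this was a log2 difference of -0.34, with SE 0.098 and a 95% interval of -0.57 to -0.11 (adjusted p = 0.638). It depended on the probe set used, the brightest of the gene. Another CLTB probe set read 312.9, 355.3 and 313.6 in control and 265.8, 310 and 276.5 in knockdown, also without overlap, at -0.18. The remaining pair gave -0.055 and, for a dim one, 0.16, both with overlapping groups, and the mean of the 4 gave -0.10 (adjusted p = 0.85).

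The other light chain, CLTA, binds the same heavy chain. It averaged 21364 ± 2669 with scrambled siRNA and 21646 ± 2419 after knockdown (SD, n = 3), a log2 difference of 0.021. Its other bright probe sets gave 0.11 and -0.21. On the one at -0.21 the lowest control array read 13074 and the highest knockdown array 12982, so the groups were apart by a narrow margin. The heavy chain CLTC, which forms the legs of the triskelion, read 14007 ± 997 and 14605 ± 608, a log2 difference of 0.062. Its dim probe sets gave -0.37 and -0.27, at intensities of 36 or less on every array.

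The ratio of CLTA to CLTB within an array, in which a common scaling of the array largely cancels, was 5.01 ± 0.28 in control and 5.37 ± 0.18 in knockdown on the log2 scale (SD, n = 3). The difference of 0.36 had p = 0.2 in an exact two-sided permutation test, where 3 arrays against 3 cannot go below 0.1, and the groups overlapped. Control replicate 1 had both the lowest CLTA and the highest CLTB reading of its group. The same ratio was taken for 13 pairs of coat paralogues. None of the 13 separated the groups at the offset of 50, while CLTA and CLTB did at an offset of 16 (0.38), with the mean of the probe sets (0.15) and with quantile normalization (0.40), each with an exact p of 0.1. At the offset of 50 the adjusted p-values ran from 0.975 to 1 (exact permutation test, Benjamini-Hochberg over the pairs). After CLTA and CLTB, the pairs with the next largest differences were SEC24C and SEC24D at -0.26 and AP1G1 and AP1G2 at -0.23, each with an exact p of 0.4. The ratio of SAR1A to SAR1B was 3.08 ± 0.19 and 3.00 ± 0.18 (SD, n = 3), and that of SEC23A to SEC23B 0.0030 ± 0.20 and 0.059 ± 0.45.

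AP-1 is a tetramer of a gamma, a beta, a mu and a sigma subunit that works between the trans-Golgi network and endosomes. Of its 8 genes, 3 lay above 0 and 5 below, with a median of -0.031, and none had an unadjusted p under 0.05. The gamma subunit gene AP1G2 had the largest difference of any coat gene. It read 359.5, 402.2 and 681.1 on the control arrays and 729.8, 674.3 and 516.6 on the knockdown arrays. Control replicate 3 read within the knockdown range and the other controls below it. In limma it differed by 0.41 on the log2 scale, with SE 0.24 and a 95% interval of -0.15 to 0.97 (adjusted p = 0.803). It was 0.67 without control replicate 3 (unadjusted p = 0.00743, adjusted p = 0.721) and 0.25 without control replicate 1. A dim second probe set gave 0.13. The other gamma subunit, AP1G1, was at 0.18, a value carried by knockdown replicate 1, which read 2587 beside 1825 and 1906 on the other knockdown arrays, and it was 0.030 without that array. Its other probe sets gave 0.001 and -0.13.

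The small sigma subunits closed the AP-1 set. AP1S2 averaged 9239 ± 1066 with scrambled siRNA and 8157 ± 786 after knockdown (SD, n = 3), a log2 difference of -0.18 (adjusted p = 0.836 in limma). All 4 AP1S2 probe sets lay below 0. One of them had the largest difference of the 108 coat probe sets. It read 2961, 2611 and 3309 on the control arrays and 1247, 2546 and 1712 on the knockdown arrays, at -0.73 (SE 0.25, adjusted p = 0.718 in limma over all probe sets). Knockdown replicate 2 lay just under the lowest control, so the groups barely separated. The remaining AP1S2 probe sets gave -0.076 and -0.045, so that this one stood apart within its gene. The 3 probe sets of AP1S1 gave -0.11, -0.15 and -0.20, and AP1S3, a dim gene, was at 0.015. The mu subunits, which read tyrosine signals in cargo tails, were at -0.12 for AP1M1 and -0.043 for AP1M2, the epithelial form. The beta subunit AP1B1 was at -0.020.

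AP-2 is the matching tetramer of endocytosis at the plasma membrane. One of its 5 genes lay above 0 and 4 below, with a median of -0.085. The alpha subunit AP2A2 had the smallest unadjusted p of the 5. It read 2289, 2379 and 2504 on the control arrays and 2612, 1958 and 1882 on the knockdown arrays. Knockdown replicate 1 was the highest of the 6 arrays and the other knockdown arrays were the lowest. The log2 difference was -0.16 (SE 0.14, adjusted p = 0.858 in limma), and without knockdown replicate 1 it was -0.31 (unadjusted p = 0.0176, adjusted p = 0.689). It was -0.10 without knockdown replicate 2, -0.077 without knockdown replicate 3 and -0.058 when its probe sets were averaged.

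The other alpha subunit, AP2A1, was dim on all 4 of its probe sets. On the one used it read 110.2, 93.8 and 74.89 in control and 19.25, 100.3 and 88.41 in knockdown, at -0.33. The value rested on knockdown replicate 1 and was 0.020 without it. Another pair of AP2A1 probe sets gave 0.51 and 0.25, with every knockdown array above every control array, and the last gave -0.003. The subunits that bind cargo signals were AP2M1, for tyrosine motifs, at -0.085 and AP2S1, for dileucine motifs, at -0.072. AP2M1 averaged 5594 ± 523 with scrambled siRNA and 5257 ± 79.2 after knockdown (SD, n = 3). The 3 AP2S1 probe sets lay below 0, at -0.072, -0.10 and -0.19. The beta subunit AP2B1, which binds clathrin, was at 0.017, or -0.13 without knockdown replicate 1.

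GGA proteins are single-chain adaptors that sort mannose 6-phosphate receptors and their lysosomal enzymes at the trans-Golgi network. Their differences spanned the narrowest range of the 6 coat types, from -0.025 for GGA2 to 0.038 for GGA3. GGA3 had the smallest unadjusted p of these, 0.791. It read 481.1, 418.5 and 605.9 in control and 516.1, 497.3 and 519.6 in knockdown, with the knockdown arrays inside the control range. GGA1 read 2224 ± 103 and 2214 ± 201 (SD, n = 3). GGA2 was covered by 8 probe sets, more than any other member. They ran from -0.43 for a dim one to 0.20 for one on which all knockdown arrays (864 to 920) lay above all control arrays (723 to 853).

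**Figure D2:**
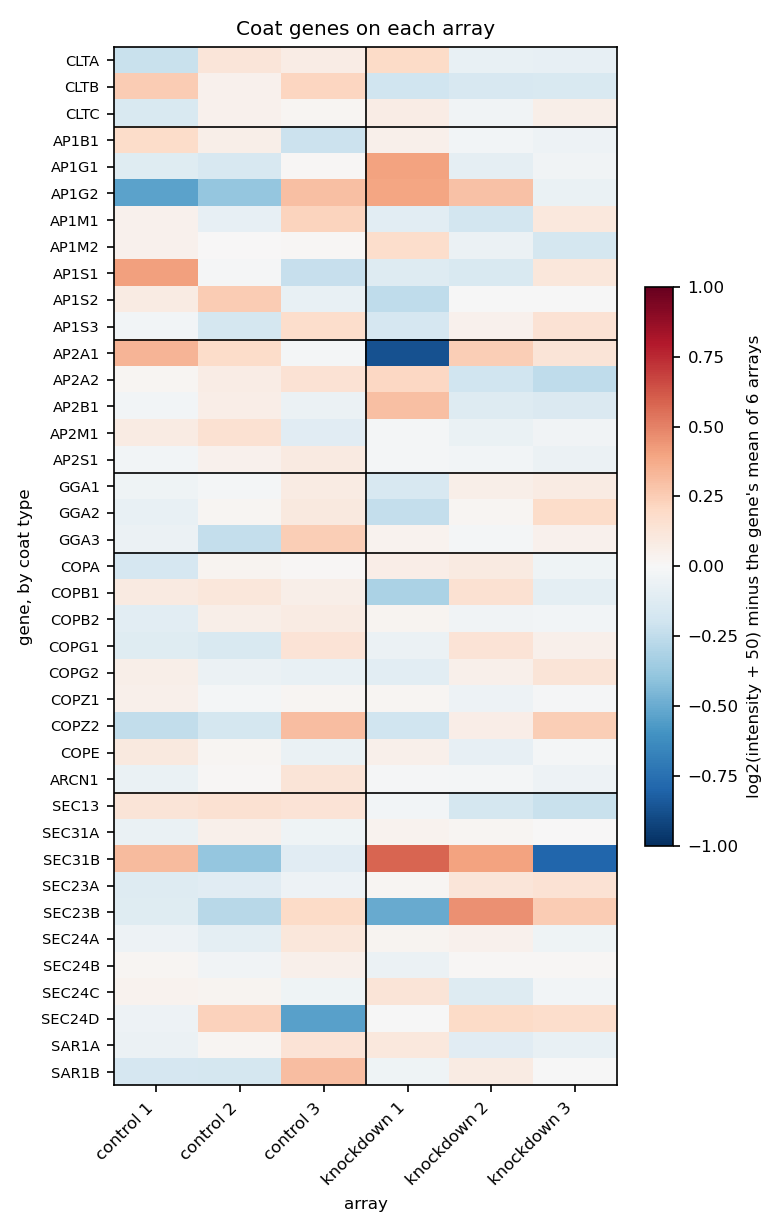
Each coat gene (rows, by coat type) on each of the 6 arrays (columns), as log2(intensity + 50) minus the mean of that gene over the 6 arrays; red is above and blue below that mean. CLTB and SEC13 are above their mean on the 3 control arrays and below it on the 3 knockdown arrays, while AP2A1 and SEC31B, both dim, hold the strongest single-array departures.

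COPI, or coatomer, is a complex of 7 subunits recruited by the GTPase ARF1, with alternative genes for the gamma and zeta subunits. Of its 9 genes 4 lay above 0 and 5 below, with a median of -0.022. All 9 intervals lay inside 1.5-fold on the probe sets and the scale used. For the dim COPZ2 the interval does not bound a change in the transcript, because that scale understates the change of dim genes. The log2 difference of COPZ2 was 0.079, and 0.17 at an offset of 16. COPB1, the beta subunit, had the smallest unadjusted p, 0.231. It read 12504, 12682 and 12170 in control and 9385, 13048 and 10932 in knockdown, with 1 knockdown array above the controls and the others below. The log2 difference was -0.18 (SE 0.13, adjusted p = 0.847 in limma), and without knockdown replicate 2 it was -0.30 (unadjusted p = 0.0455, adjusted p = 0.719). Without knockdown replicate 1 it was -0.060 (unadjusted p = 0.61 in limma), and 0.035 when its probe sets were averaged. Its second bright probe set gave -0.066.

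The other coatomer genes varied less. The alpha subunit COPA averaged 4139 ± 305 with scrambled siRNA and 4376 ± 215 after knockdown (SD, n = 3), at 0.081. The beta-prime subunit COPB2 read 4543 ± 326 and 4466 ± 98.1, at -0.022, and epsilon, COPE, read 2766 ± 162 and 2695 ± 124, at -0.036. The delta subunit ARCN1 was at -0.050. The gamma genes were at 0.089 for COPG1 and 0.050 for COPG2. COPZ1, the widely used zeta gene, read 4267 ± 106 and 4178 ± 100, at -0.030, with a 95% interval of -0.23 to 0.17, the narrowest of the 39. COPZ2 was dim, at 38.53 or less on every array.

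COPII assembles in steps. The GTPase SAR1 brings in SEC23 and SEC24, the inner layer that activates GTP hydrolysis and selects cargo, and SEC13 with SEC31 forms the outer cage. Of its 11 genes 7 lay above 0 and 4 below, with a median of 0.024. SEC13, which also serves in the nuclear pore, read 6050, 6162 and 6081 on the control arrays and 5426, 4881 and 4737 on the knockdown arrays. The control arrays lay close together, with an SD of 0.944% of their mean, and each knockdown array lay below them. The means were 6098 ± 57.5 and 5015 ± 363 (SD, n = 3), with 82.2% of the control signal left. In limma the log2 difference came to -0.28, with SE 0.095 and a 95% interval of -0.51 to -0.058 (adjusted p = 0.705). It kept an unadjusted p under 0.05 in all alternatives but 3, which left out control replicate 2, knockdown replicate 2 or knockdown replicate 3 (unadjusted p of 0.0529, 0.0595 and 0.0739). The array has 1 probe set for SEC13, so no second reading was possible.

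Its cage partner SEC31A averaged 6498 ± 285 with scrambled siRNA and 6686 ± 80.2 after knockdown (SD, n = 3), at 0.042, with a second probe set at 0.013. The dim paralogue SEC31B ranged from 28.3 to 153.1 among the knockdown arrays and was at 0.12. In the inner layer, SEC23A read 2266, 2289 and 2404 in control and 2526, 2712 and 2755 in knockdown. All knockdown arrays were above all control arrays, by 0.070 on the log2 scale between the nearest of them. The limma estimate was 0.20 on the log2 scale, with SE 0.090 and a 95% interval of -0.018 to 0.41 (adjusted p = 0.759), and a dim second probe set gave 0.039. SEC23A is singled out here after its values were seen. SEC23B was at 0.14 on the probe set used, where the knockdown arrays read 1703, 3356 and 2908. Another SEC23B probe set gave -0.22, with control at 1083 to 1175 and knockdown at 895.5 to 1024, without overlap. The opposite signs came from probe sets of the same gene.

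The cargo-binding SEC24 genes were at 0.019 (SEC24A), -0.024 (SEC24B), -0.020 (SEC24C) and 0.24 (SEC24D). The SEC24D value followed control replicate 3, which read 236.1 beside 353.2 and 438.8 on the other controls, and was 0.030 without it, or 0.42 without control replicate 2. The SAR1 GTPases start the coat. SAR1A averaged 5344 ± 364 with scrambled siRNA and 5126 ± 429 after knockdown (SD, n = 3), at -0.060. A second SAR1A probe set read 878.8, 824.4 and 760.5 in control and 493.7, 654.2 and 702.3 in knockdown, at -0.40 (adjusted p = 0.741 in limma over all probe sets). SAR1B was at 0.024 on the probe set used. Its others gave -0.098, -0.35, -0.37 and 0.19, and the one at -0.37, a dim one, gave 163.7, 136.8 and 140.3 in control against 105.9, 90.29 and 110.1 in knockdown.

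**Figure D3:**
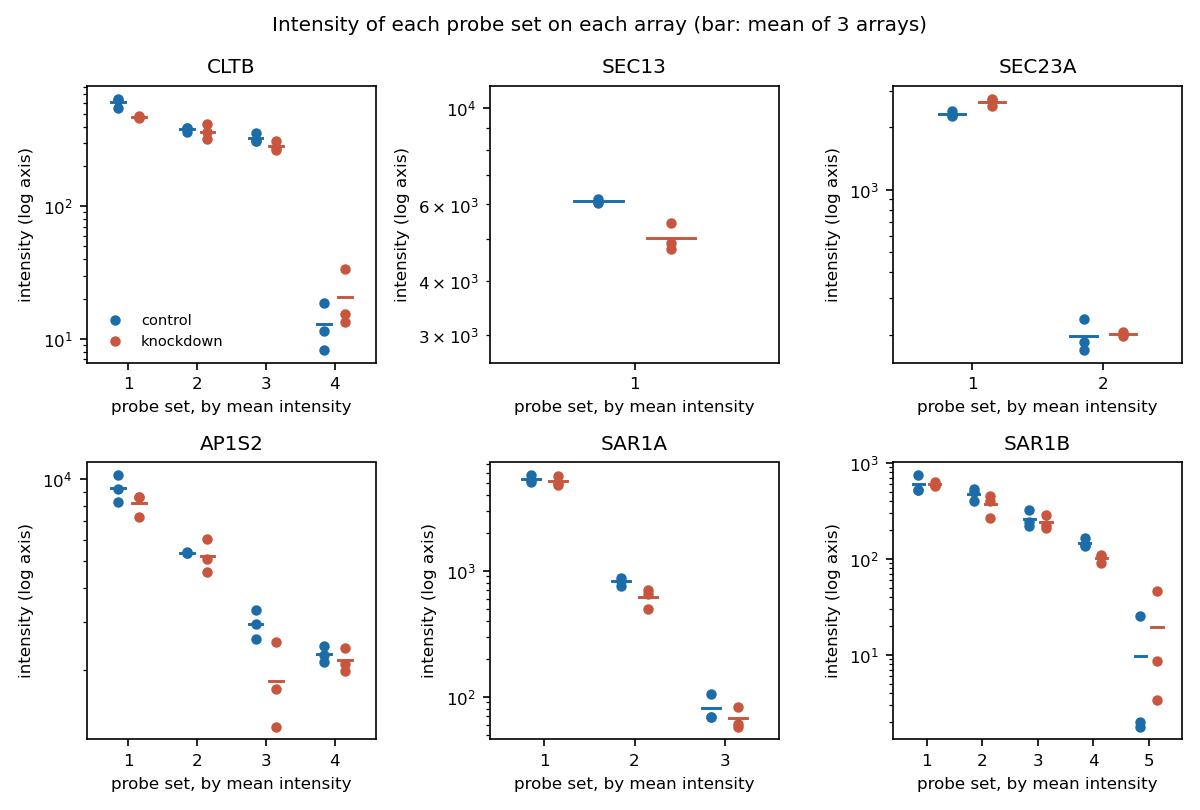
Intensity (log axis) of every probe set of CLTB, SEC13, SEC23A, AP1S2, SAR1A and SAR1B on the 3 control arrays (blue) and 3 knockdown arrays (red), with bars at the group means; probe sets of a gene are numbered by mean intensity. The groups separate on the brightest probe set for CLTB, SEC13 and SEC23A, and on a less bright one for AP1S2, SAR1A and SAR1B.

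Over all 108 coat probe sets no probe set passed either (smallest adjusted p = 0.667 in limma), where 0.00243% of all probe sets were called. An unadjusted p under 0.05 was reached by 9 (8.33%), 3 higher and 6 lower, against 6.6% of all probe sets (3.91% higher and 2.69% lower). The groups did not overlap on 18 (16.7%), against 12.5% of all. These were 12 lower (11.1%, against 5.47%) and 6 higher (5.56%, against 7.03%). Probe sets of 1 gene share their transcript, so these are not independent readings. Of the coat probe sets 38.0% read below the median gene, against 61.6% of all. The shares above were not matched for signal, so they are not read as a result about the coat genes. Of the 17 members with more than 1 probe set at or above the median gene, 8 had all of these on one side of 0. The 6 with all of them below 0 were CLTB, AP1S1, AP1S2, AP2S1, COPB1 and SAR1A, and the 2 with all above 0 were COPA and SEC31A. The same share was not counted over all genes, so it is not read as a result about the coat genes.

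The proteins that work with the coats were read as 6 lists, 84 genes measured of 90, of which none passed (smallest adjusted p = 0.64 in limma). The median over them was -0.007, with 2 higher and 5 lower at an unadjusted p under 0.05 (8.33%, against 6.66% of all genes) and 18 genes without overlap (21.4%, against 13.0%). In the list of ARF GTPases, which recruit COPI, AP-1 and GGA, and their regulators, 9 of 14 lay above 0. The 2 with the smallest p were lower. ARF5 averaged 2762 ± 189 with scrambled siRNA and 2128 ± 192 after knockdown (SD, n = 3), at -0.37. ARF6, the ARF of the plasma membrane, read 4249, 4527 and 4452 in control and 1951, 3385 and 3141 in knockdown, at -0.67 (SE 0.20, adjusted p = 0.649 in limma). The other 3 ARF6 probe sets gave 0.022, -0.17 and -0.038, so the difference was seen on 1 of 4.

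Cargo receptors of COPI and COPII lay below 0 in 11 of 17 genes, with a median of -0.079 against 0.0030 over all genes. The groups did not overlap, on the lower side, for 6 of them (35.3%), against 6.29% of all genes. All 17 read at or above the median gene, where the share was 7.83%. The 6 were TMED3, ERGIC2, CNIH4, LMAN1, TMED9 and TMED5, which carry or gather cargo between the endoplasmic reticulum and the Golgi. Their nearest control and knockdown arrays were 0.013 (ERGIC2) to 0.075 (TMED3) apart on the log2 scale. Other probe sets of CNIH4, LMAN1, TMED9 and TMED5 are not given here. TMED3, a p24 family protein, averaged 2040 ± 102 with scrambled siRNA and 1725 ± 86.2 after knockdown (SD, n = 3), at -0.24 (adjusted p = 0.738 in limma). Its 3 other probe sets, all dim, separated the groups as well, at -0.79 and -0.52 on the lower side and at 0.19 on the higher. The one at -0.79 had the smallest unadjusted p of the 4 (5.75e-05, adjusted p = 0.371 in limma over all probe sets). ERGIC2 was at -0.37 on the probe set used and at -0.034 on a second bright one. ERGIC3, at 0.14, was apart on the higher side.

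Factors of COPII exit sites lay above 0 in 7 of 11 genes. MIA3, also called TANGO1, which helps load large cargo such as collagen, read 615.1, 589 and 628.8 in control and 814.1, 755.9 and 735.2 in knockdown. The groups did not overlap, and the log2 difference was 0.31 (SE 0.091, adjusted p = 0.64 in limma), while its other probe sets gave 0.074, -0.015 and -0.14. SEC16A, the scaffold of the exit site, was at 0.18 and TFG, which helps organise exit sites, at 0.13. With MIA3 these were the 3 of 11 (27.3%) whose knockdown arrays all lay above the controls, against 6.68% of all genes. Of 23 clathrin accessory factors 10 lay above 0, with PICALM, which recruits clathrin and SNAREs to endocytic buds, at 0.21 and AMPH at 0.24. The other PICALM probe sets gave 0.010, 0.12 and, for dim ones, 0.18 and -0.21, and the mean of all 5 was 0.065. AMPH ran from 0.12 to 0.31 when an array was left out. Of 11 genes of scission and uncoating 5 lay above 0, with SH3GL3 at -0.24 and the uncoating cochaperone DNAJC6 at 0.13. The dim other probe sets of SH3GL3 gave -0.41 and 0.54, the mean of its probe sets -0.037, and leaving out an array moved it between -0.39 and -0.12. The list of AP-4, AP-5 and the second clathrin heavy chain had 4 of 8 above 0. CLTCL1, that heavy chain, was dim, at 81.6 ± 16.1 and 133 ± 24 (SD, n = 3), with a log2 difference of 0.48 (adjusted p = 0.64 in limma). AP5B1, also dim, was at 0.36.

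**Figure D4:**
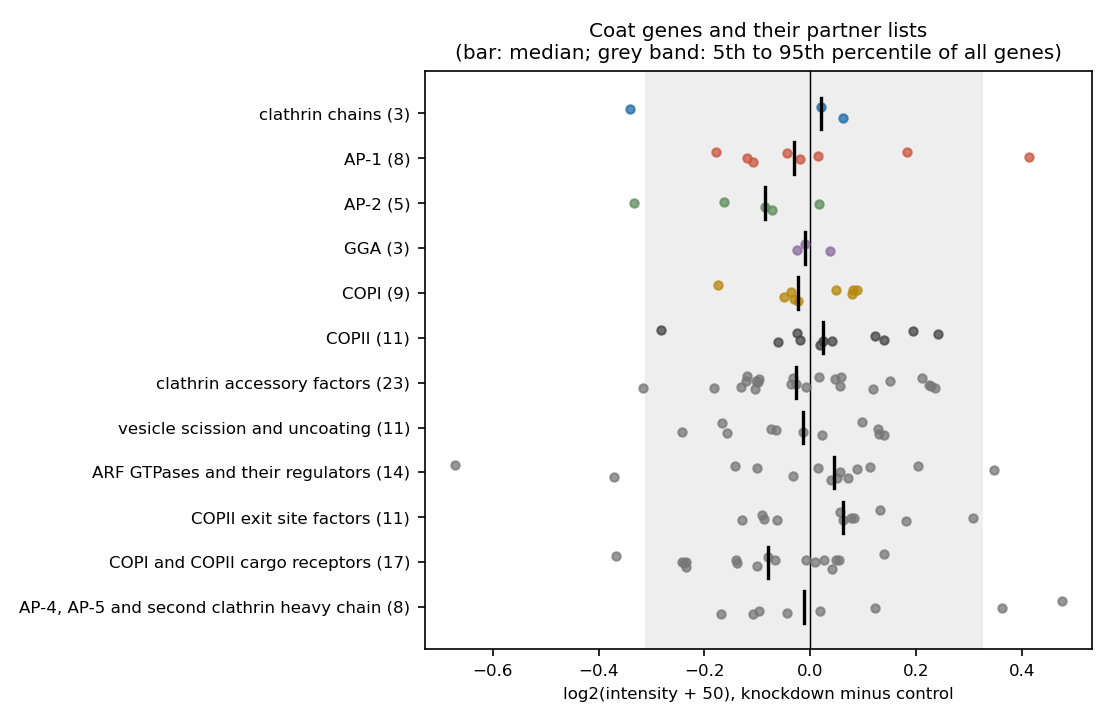
Log2 difference between knockdown and control (x axis) of every measured gene in the 6 coat types (coloured) and the 6 lists of partner genes (grey), with the number of genes in brackets; bars are list medians and the grey band spans the 5th to 95th percentile of all genes, -0.31 to 0.33. Among the coat genes CLTB, AP2A1 and AP1G2 lie outside the band, and ARF6 lies furthest below it.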

How the data were processed

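The deposited file gave a linear intensity for each probe set of a human 3′ expression array. The authors had scaled each array to a trimmed mean of 500.07 (2% left out at each end). The submitters' processing notes name RMA, which gives log2 values and does not describe these; the program that made them, and its background correction, is not given in the sources used here.

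Probe sets naming 1 gene were named from the platform annotation, with symbols updated through a reference gene table of GRCh38.p14 (99.87% of identifiers matched). The probe set of highest mean stood for its gene. Knockdown was compared with control on log2(intensity + 50) in limma 3.58.1 (R 4.3.3, lmFit and eBayes), adjusted over 19775 genes, and again over 41091 probe sets, each at an adjusted p under 0.05. The code was tested on simulated arrays. The number of arrays limits the precision, and no detection calls were used.

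The coat genes, partner lists, markers, pairs and offset were chosen with earlier results of these data known. Per-array values are given for members at an unadjusted p under 0.05, the member of smallest p in each coat type, and others singled out after their values were seen. From each partner list the 2 genes of smallest p were taken. No protein sequence was used here.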

Additional observations from a re-analysis of the deposited data

How the results depend on the processing

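No coat gene passed the adjusted threshold in any of the 17 alternatives (smallest adjusted p = 0.436 in limma). VAMP7 passed in each of the 16 that gave 1 value per gene, with log2 differences from -3.96 to -3.42. It also passed in the fit over all probe sets (adjusted p = 0.000234 in limma). One further gene, the dim C19orf73, passed at an offset of 16 (2 genes called, adjusted p = 0.0276) and when probe sets were averaged per gene (2 genes called, 0.0375). Coat genes at an unadjusted p under 0.05 numbered 1 to 5 when an array was left out, with 1 without control replicate 2 (CLTB) and 5 without knockdown replicate 1 (SEC13, AP2A2, CLTB, SEC23A and SEC23B). The share of all genes was not counted with an array left out or with the replicate block. The counts in these settings are therefore not read as a result about the coat genes. Of the coat probe sets 9 reached it (8.33%, against 6.6% of all probe sets). The median log2 difference of the coat genes was -0.054 with arrays centred on their median, which shifted the median gene by -0.035, and -0.040 to 0.014 when an array was left out, above 0 without control replicate 3.

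The sign of 23 coat genes, none of them past the threshold, turned in 1 or more alternatives. With the mean of the probe sets these were CLTC (-0.19), AP1M2 (0.087), AP1S3 (-0.040), AP2A1 (0.11), GGA1 (0.099), COPB1 (0.035), COPZ1 (0.053), COPZ2 (-0.069), SEC23B (-0.034) and SAR1B (-0.12). With centred arrays they were CLTA (-0.014), AP1S3 (-0.020), AP2B1 (-0.017), SEC24A (-0.015) and SAR1B (-0.010), and with quantile normalization AP1S3 (-0.0043) and COPB2 (0.0030). With array weights they were CLTA (-0.024), AP2B1 (-0.067), GGA1 (0.037), GGA2 (0.061) and SEC31B (-0.17). Leaving out 1 array turned CLTA (-0.086 to 0.086), AP1B1 (-0.13 to 0.068), AP1S1 (-0.25 to 0.070), COPZ2 (-0.025 to 0.25), COPE (-0.078 to 0.0049), SEC24A (-0.023 to 0.081), SAR1B (-0.058 to 0.18), AP1S3 (-0.068 to 0.11), GGA3 (-0.073 to 0.17), COPB2 (-0.082 to 0.014), SEC31B (-0.13 to 0.55), AP2B1 (-0.13 to 0.094), GGA1 (-0.052 to 0.066), GGA2 (-0.12 to 0.087), ARCN1 (-0.096 to 0.0013), AP2A1 (-0.54 to 0.020), SEC23B (-0.054 to 0.43), SEC24C (-0.089 to 0.040), AP1M2 (-0.14 to 0.036) and COPG2 (-0.00034 to 0.11). The cause was not tested. CLTB and SEC13 stayed below 0 in all 16 alternatives that gave 1 value per gene, and were among 16 coat genes whose sign never turned. Their groups did not overlap, so leaving out an array or changing the offset could not turn their sign. SEC13 has 1 probe set, so averaging probe sets could not either.

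Arrays with the same replicate number did not deviate together (correlations of -0.0003, 0.0107 and -0.0197), so the numbers were not taken as pairs. These numbers are those of the titles, since the descriptions give all 3 knockdown samples the number 1. With the replicate block, 1 gene was called (VAMP7, -3.71, adjusted p = 0.00661 in limma), 2 coat genes had an unadjusted p under 0.05 and the coat median was -0.020. The settings for the paralogue ratios (other offsets, the mean of the probe sets, quantile normalization) were chosen after the data were seen, and the number of separated pairs of 13, 0 at the offset of 50, was 0 at an offset of 100 and 1 in each of the others, CLTA and CLTB (exact p of 0.1, adjusted p of 0.65 to 1 over the pairs). The fit over all probe sets was not read as 1 value per gene, since 31 of the 39 coat genes have more than 1 probe set.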

Other observations

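One further probe set names both AP1G2 and JPH4 and was left out of the comparisons. It read 279.4, 347 and 309.1 on the control arrays and 390.2, 370.1 and 331.3 on the knockdown arrays, a log2 difference of 0.20, and which of the 2 genes it reads was not tested.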
